A study of Mus musculus with 5 samples.

Results

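Ttr and Prlr are 2 genes that mark the choroid plexus, the tissue within the brain ventricles whose epithelium makes cerebrospinal fluid. They were taken from a series of 53700 counted gene features, and each gene was read by the feature whose intervals overlap its GRCm38 exons most. Ttr was chosen because 1 library stood far above the rest and Prlr because it differed between the genotypes, so the levels of both are described and not tested. The data are RNA sequencing counts from striatal homogenates of adult mice. There are 2 libraries of mice with the R419W change knocked into Adcy5 (KI replicates 1 and 3), and 3 of WT littermates (WT replicates 1, 2 and 3). Adenylyl cyclase 5, which Adcy5 encodes, makes most of the cyclic AMP in the striatum. The labels give no treatment, exact age, sex or zygosity, and none ties a library to 1 animal, so the spread between libraries may be in part technical. Total counts ranged from 6595105 to 7910584 per library.

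Transthyretin, the product of Ttr, is secreted by choroid plexus epithelium into the cerebrospinal fluid, where it carries thyroxine and takes part in the transport of retinol. Neurons are not known as a main source of its transcript in the brain. The prolactin receptor, the product of Prlr, is a cytokine receptor that signals through the kinase Jak2 and the transcription factor Stat5. It is abundant in choroid plexus and is also made by neurons of the hypothalamus and other forebrain nuclei. The choroid plexus of the lateral ventricle lies beside the striatum. In bulk tissue, more cells of a type and more RNA per cell cannot be told apart.

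The features that read both genes differ in how much of the gene they see. Ttr lies on chromosome 18 from 20665280 to 20674321 (GRCm38, plus strand). The feature that the files label Ttr sits 133057 bases higher, at its GRCm39 position, and held 0 counts in each of the 5 libraries. Reads over Ttr were counted instead by the feature labelled Dsg3, whose intervals cover 868 of the 1186 exon bases in 3 of 4 exons, the whole last exon among them. That feature has 6978 bases in all and also covers 200 exon bases of Gm16090, an antisense gene. Strand was not used in the counting, so reads from Gm16090 cannot be told apart from those of Ttr. Prlr lies on chromosome 15 from 10177238 to 10349180 (plus strand), and its own labelled feature is shifted by 86 bases. It still covers 13989 of 15339 exon bases in 15 of 16 exon blocks, and overlaps Gm21973, an annotated gene with exons in both Prlr and Agxt2. The counts do not separate the receptor's short and long isoforms.

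**Figure D1:**
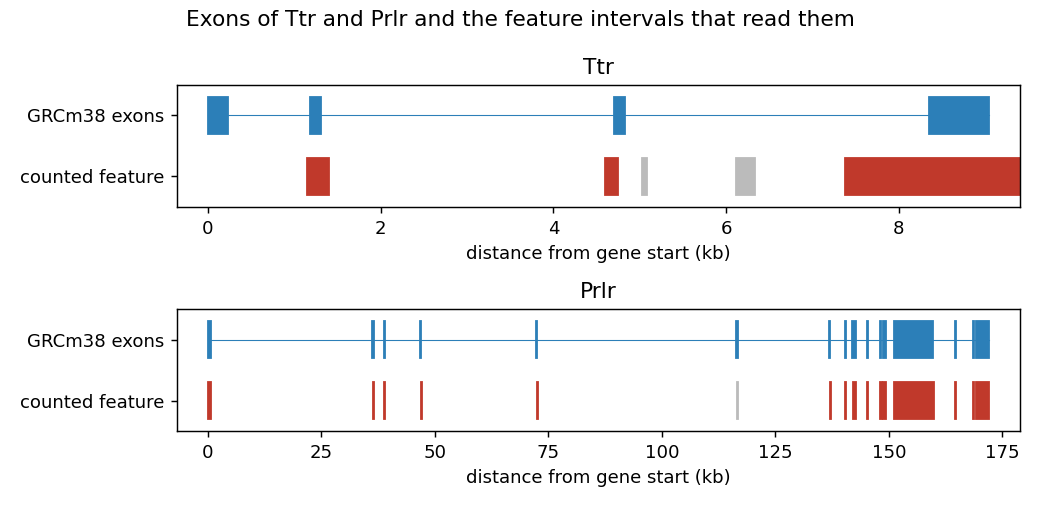
Merged GRCm38 exons of Ttr and Prlr (blue) above the intervals of the feature that counted their reads (red where they touch an exon, grey where they do not), against the distance from the gene start in kb. Narrow blocks are drawn wider than their length. The feature misses the first Ttr exon and covers 46 of 136 bases of exon 3. The Prlr feature follows the exons at a shift of 86 bases. Its long blocks are nearly whole, short ones are covered in part, and block 6, of 60 bases, is missed.

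Ttr was high in KI replicate 3 alone. Its feature held 207 and 16902 counts in KI replicates 1 and 3, against 318, 415 and 404 in WT replicates 1, 2 and 3. Scaled to library size by TMM, these were 28.0 and 2086 CPM in the KI libraries, against 41.6, 55.3 and 61.6 CPM in the WT libraries. KI replicate 3 stood 33.8-fold above the next library, whereas KI replicate 1 was the lowest of the 5. The genotype groups therefore overlapped, and the mean of 1057 ± 1455 CPM in KI (SD, n = 2) against 52.9 ± 10.2 CPM in WT (SD, n = 3) rested on 1 library. The fitted log2 fold change of KI over WT was 4.32 (SE 0.95), and without KI replicate 3 it was -0.92, in the other direction.

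In KI replicate 3 the Ttr feature took up 0.214% of all counts (exact 95% binomial interval 0.210 to 0.217%). The intervals in CPM were 24.3 to 32.0 in KI replicate 1, against 37.2 to 46.5, 50.1 to 60.9 and 55.8 to 67.9 in WT replicates 1, 2 and 3. Only those of WT replicates 2 and 3 overlapped, and these intervals cover counting error alone. Since Ttr was chosen for its excess in 1 library, its place in the order of such excesses in KI replicate 3 only restates that choice: it was first of 13450 ranked features (values of the other libraries under 0.3 CPM were set to 0.3 for this order).

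Prlr followed another order. It held 195 and 415 counts in KI replicates 1 and 3, against 113, 37 and 45 counts in WT replicates 1, 2 and 3. These were 26.3 and 51.2 CPM in the KI libraries, against 14.8, 4.93 and 6.86 CPM in the WT libraries. Both KI libraries were above all 3 WT libraries, and WT replicate 1 lay between them and the other WT libraries. The means were 38.8 ± 17.6 CPM in KI (SD, n = 2) and 8.86 ± 5.23 CPM in WT (SD, n = 3), at a fitted log2 fold change of 2.12 (SE 0.41). Of all 13665 features tested, 11.3% had both KI libraries above all 3 WT libraries, and nothing is read from Prlr being one of them, since it was chosen on this contrast.

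Neighbouring libraries in the Prlr order differed by more than counting error except at the low end. The exact intervals were 46.4 to 56.4 CPM in KI replicate 3 and 22.8 to 30.3 CPM in KI replicate 1, against 12.2 to 17.8 CPM in WT replicate 1. Those of WT replicate 3 (5.01 to 9.19 CPM) and WT replicate 2 (3.47 to 6.80 CPM) overlapped. Without KI replicate 3 the log2 fold change of Prlr was 1.57, and without KI replicate 1 it was 2.52. A second feature, labelled Gm21973, covers 100 Prlr exon bases and counts some of the same reads. It held 6 and 16 counts in KI replicates 1 and 3, against 6, 0 and 0 in WT replicates 1, 2 and 3.

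**Figure D2:**
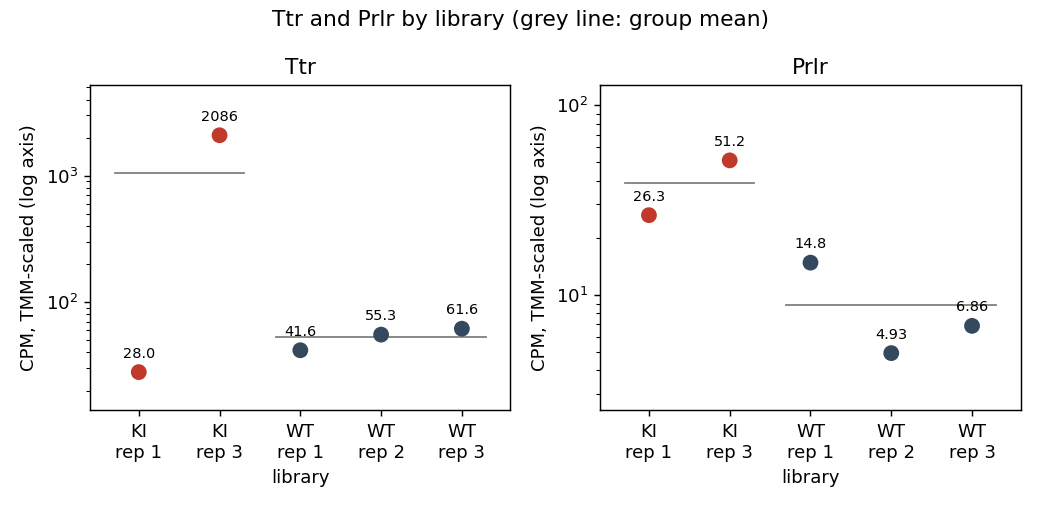
Ttr (left) and Prlr (right) in CPM on a log axis for each library, KI in red and WT in dark blue, with the group mean as a grey line. Ttr is at 2086 CPM in KI replicate 3 and between 28.0 and 61.6 CPM in the other 4 libraries, while Prlr is above all WT libraries in both KI libraries.

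Both genes were highest in KI replicate 3 and disagreed in KI replicate 1, which was second for Prlr and last for Ttr. Per 1000 covered exon bases, Ttr stood at 32.2 and 2403 CPM in KI replicates 1 and 3, against 48.0, 63.7 and 71.0 CPM in WT replicates 1, 2 and 3. On the same scale Prlr stood at 1.88 and 3.66 CPM in the KI libraries, against 1.06, 0.353 and 0.491 CPM in the WT libraries. The ratio of Ttr to Prlr per covered base was 17.1 and 656 in KI replicates 1 and 3, against 45.4, 181 and 145 in WT replicates 1, 2 and 3. The 2 genes thus did not keep a fixed ratio between libraries. Whether the Prlr reads of KI replicate 1 came from choroid plexus or from other cells was not tested.

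Other choroid plexus genes were read from a list of 53 without Ttr and Prlr. Of these, 33 had a feature over part of their exons, 20 of them on a feature with no exon of another protein-coding gene. The rest, with Aqp1, Kcnj13, Otx2 and Cldn2 among them, had no feature and could not be read. A feature usually covers a short stretch of a gene's exons, and its counts include reads over its other bases too. A level is thus that of the feature and not of the whole gene. Igf2, a growth factor gene, held 0 counts in every library, and Kcne2, a potassium channel subunit, held 0 and 2 counts in KI replicates 1 and 3 against 1, 0 and 0 in WT replicates 1, 2 and 3.

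Several, but not all, low-level choroid plexus genes stood out in KI replicate 3. Kl, the gene of the anti-ageing protein klotho, held 0 and 22 counts in KI replicates 1 and 3, against 5, 0 and 0 counts in WT replicates 1, 2 and 3. Slc4a5, a sodium bicarbonate cotransporter of the epithelium, held 2 and 30 counts in the KI libraries, against 0 in each WT library. On these features Kl was thus at 0 counts in KI replicate 1 and in 2 WT libraries, and Slc4a5 in all WT libraries. Other Slc4a5 features, given below, held counts in every library. Abca4, a transporter of retinal derivatives best known from photoreceptors, held 1 and 32 counts in the KI libraries, against 0, 9 and 12 in the WT libraries. Slc13a4, a sulphate transporter found in choroid plexus and meninges, held 2 and 33 counts in the KI libraries, against 11, 0 and 7 in the WT libraries. Folr1, the folate receptor that moves folate into the cerebrospinal fluid, shares its feature with Anapc15, which held 1 and 76 counts in the KI libraries, against 27, 16 and 0 in the WT libraries. In each of these 5 the level of KI replicate 3 was highest, and KI replicate 1 held at most 2 counts.

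These 5 genes were singled out after their values were seen, by being at least 2-fold above each other library with at least 10 counts. They were 5 of the 31 list members with at least 10 counts in some library, and 3.51% of all 16208 such features met the same rule in KI replicate 3. Kl and Slc4a5 reached 10 counts in KI replicate 3 only, so they had to differ and their part of the count carries no weight. Among the 29 members with at least 10 counts in another library, 3 met the rule (Folr1, Abca4 and Slc13a4), against 0.794% of the 15500 such features. None of these 3 was 3-fold above each other library. In the other libraries 0 of the 31 met it, where the shares over all features were 1.95% for KI replicate 1 and 2.31%, 3.03% and 1.88% for WT replicates 1, 2 and 3. KI replicate 3 was the highest library for 13 of the 31 members and for 21.9% of all such features. Kl and Slc4a5 are among the 13, as are genes on shared features such as Folr1, Clic6, Ace and Slc5a5. Krt8, Ttc21a and Lbp, members of like low level, were highest in another library on the feature that covers most of their exon bases. Krt8 held 6 and 21 counts in KI replicates 1 and 3, against 38, 4 and 4 in WT replicates 1, 2 and 3. Ttc21a held 25 and 15 counts in the KI libraries, against 22, 5 and 4 in the WT libraries. Another Ttc21a feature, over 246 exon bases, held 27 and 51 counts, against 22, 21 and 9, and was highest in KI replicate 3. One over 197 exon bases held 30 and 18 counts, against 16, 0 and 9, and was highest in KI replicate 1. Lbp, on a feature shared with Bpi, held 20 and 22, against 26, 41 and 17.

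Further features over these genes gave a mixed picture. Another feature over 229 exon bases of Slc4a5 held 24 and 51 counts in KI replicates 1 and 3, against 13, 17 and 40 in WT replicates 1, 2 and 3, so that KI replicate 3 was highest in CPM by a narrow margin. A feature over 148 exon bases of Slc4a5, shared with Mthfd2, held 172 and 160 counts in the KI libraries, against 128, 69 and 90 in the WT libraries, with KI replicate 1 the highest. For Abca4 a feature over 217 exon bases held 4 and 17 counts in the KI libraries, against 4, 5 and 0 in the WT libraries, and one over 197 exon bases held 3 and 16 counts in the KI libraries, against 4, 11 and 0 in the WT libraries. KI replicate 3 was highest in both. An Abca4 feature over 193 exon bases held 9 and 12 counts in the KI libraries, against 12, 0 and 10 in the WT libraries, with no excess in KI replicate 3. One over 149 exon bases, shared with Gclm, held 20 and 19 counts in the KI libraries, against 7, 37 and 14 in the WT libraries, also with none. For Slc13a4 a feature over 40 of its exon bases, shared with Nup205, held 304 and 266 counts in the KI libraries, against 246, 184 and 218 in the WT libraries, and showed no excess in KI replicate 3. Another over 37 of its exon bases, shared with Fam180a, held 6 and 9 counts in the KI libraries, against 17, 0 and 5 in the WT libraries, and was highest in WT replicate 1. For Folr1 a feature over 26 of its exon bases, shared with Inppl1 and other genes, stood at 124.0 and 128.2 CPM in the KI libraries. The WT libraries were above both, at 141.8, 151.5 and 148.9 CPM.

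**Figure D3:**
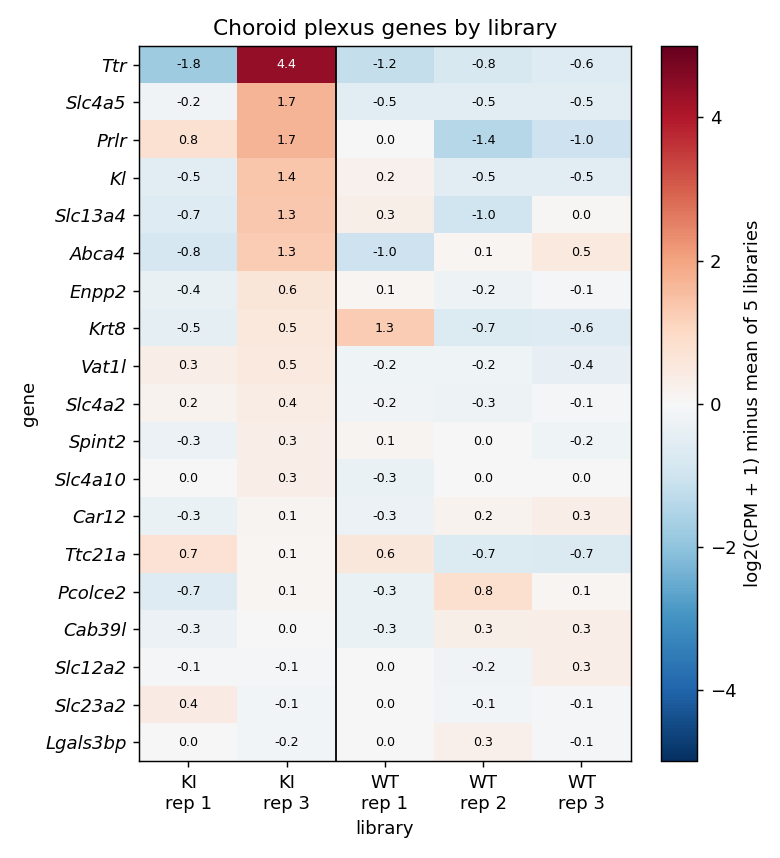
Log2(CPM + 1) of each choroid plexus gene minus its mean over the 5 libraries, for 19 genes with at least 10 counts in a library and a feature of their own (Prlr, which shares some exons with Gm21973, is included). Columns are libraries, KI left of WT, and rows run from the highest to the lowest value in KI replicate 3. Ttr shows the widest range of the genes drawn, and its high value stands in KI replicate 3 alone.

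Enpp2 was the most abundant list member with a feature of its own. It encodes autotaxin, an enzyme that makes lysophosphatidic acid and is found in choroid plexus and in oligodendrocytes. It stood at 263.1 and 515.8 CPM in KI replicates 1 and 3, against 368.8, 289.0 and 325.4 CPM in WT replicates 1, 2 and 3. As with Ttr, KI replicate 3 was the highest library and KI replicate 1 the lowest, so the groups overlapped (edgeR quasi-likelihood adjusted p = 0.977). A separate feature over 137 exon bases of Enpp2 showed this order too, at 144.6 and 267.2 CPM in the KI libraries, against 183.1, 147.3 and 154.7 CPM in the WT libraries. The excess at Enpp2 over the next library was 1.40-fold, against 33.8-fold at Ttr.

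Across genotypes the members of the choroid plexus list that could be tested showed no common direction. Of 29 members tested, 15 had a positive and 14 a negative log2 fold change of KI over WT, with a median of 0.07 against -0.0024 for all features. None passed the edgeR quasi-likelihood test at an adjusted p of 0.05, where 0.102% of the 13665 features tested did. Those were 14 features, of which 6 were higher (0.0439%) and 8 lower (0.0585%) in KI. At an unadjusted p under 0.05 there were 2 of the 29 members, near the 6.39% of all features. Vat1l alone was called by DESeq2, which called 1.74% of the features it gave an adjusted p, and by limma voom, which called 0.373% of all features. In 4 members both KI libraries were above all 3 WT libraries and in 0 below, against 11.3% and 11.1% of all features. Without KI replicate 3 the median was -0.08, and without KI replicate 1 it was 0.19.

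Vat1l, a gene related to the synaptic vesicle protein Vat1, was closest to the threshold. It stood at 278.1 and 313.1 CPM in KI replicates 1 and 3, against 194.7, 193.4 and 169.3 CPM in WT replicates 1, 2 and 3. Both KI libraries were higher than all WT libraries, at a log2 fold change of 0.67 (SE 0.12, edgeR quasi-likelihood adjusted p = 0.0636). It passed in 6 of 11 alternatives, with adjusted p values from 0.000143 to 0.526. A second Vat1l feature gave 164.1 and 172.8 CPM in the KI libraries, against 107.6, 115.6 and 97.9 CPM in the WT libraries. Its pattern differed from that of Ttr, since KI replicate 1 was raised nearly as much as KI replicate 3.

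The other named list members with features of their own had overlapping genotype groups, except Slc4a2, in which both KI libraries were above all WT libraries. Slc4a10, a sodium-driven bicarbonate exchanger that neurons also make, stood at 43.6 and 56.0 CPM in the KI libraries, against 35.6, 45.6 and 44.1 CPM in the WT libraries. Slc12a2, the cotransporter that helps drive fluid secretion and is also made by glia, stood at 34.0 and 33.0 CPM in the KI libraries, against 35.7, 31.3 and 44.4 CPM in the WT libraries. Slc4a10 was highest in KI replicate 3, 1.23-fold above the next library, and Slc12a2 in WT replicate 3, 1.24-fold above the next. Spint2, a protease inhibitor gene, stood at 20.7 and 32.1 CPM in the KI libraries, against 28.1, 25.6 and 21.8 CPM in the WT libraries. For Car12, Slc23a2, Lgals3bp, Cab39l, Slc4a2 and Pcolce2 the log2 fold changes ran from -0.62 (Pcolce2) to 0.51 (Slc4a2), and none passed the test. KI replicate 3 was the highest library in 1 of these 6, Slc4a2.

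A further 11 genes of the list with at least 1 CPM were read by features shared with other protein-coding genes: Col8a2, Rdh5, Slc29a4, Slc5a5, Car14, Calml4, Ace, F5, Sulf1, Clic6 and Tmem72. Their levels cannot be assigned to the choroid plexus gene. The feature over Col8a2, at 1163 and 1112 CPM in the KI libraries against 1308, 1105 and 1152 CPM in the WT libraries, also covers Map7d1, Tekt2 and Trappc3. In the features over Slc5a5 and Car14 both KI libraries were above all WT libraries. That over Slc5a5 also covers Arrdc2 and Kcnn1. It stood at 158.8 and 170.8 CPM in the KI libraries, against 123.2, 116.0 and 114.1 CPM in the WT libraries (edgeR quasi-likelihood adjusted p = 0.201). That over Car14 also covers Aph1a. It stood at 113.8 and 111.1 CPM in the KI libraries, against 108.4, 101.6 and 104.8 CPM in the WT libraries (edgeR quasi-likelihood adjusted p = 0.999).

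**Figure D4:**
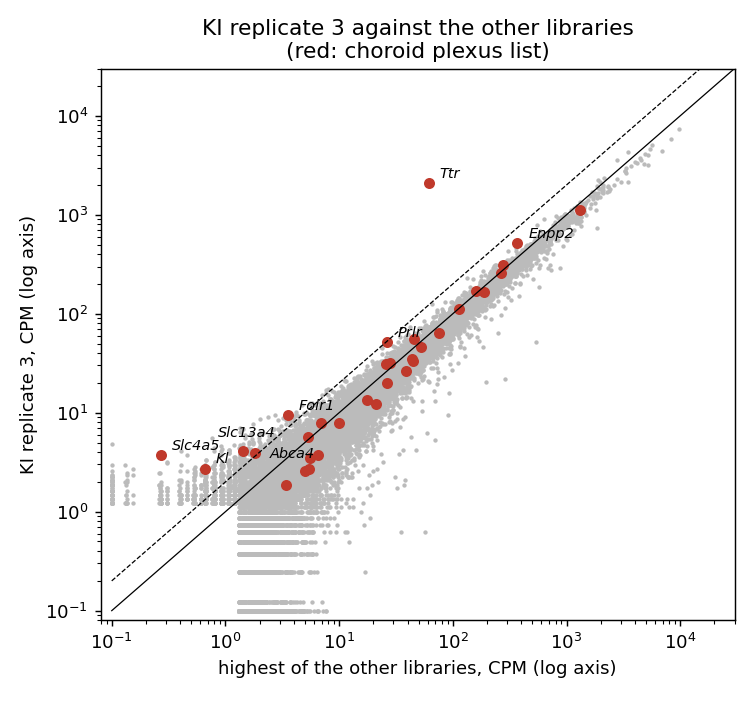
CPM in KI replicate 3 against the highest CPM of the other 4 libraries, both on log axes, for the 16208 features with at least 10 counts in a library (grey) and the choroid plexus genes (red). Values under 0.1 are drawn at 0.1. The solid line marks equal levels and the dashed line 2-fold, and Ttr lies 33.8-fold above equality.

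The features whose profile was most like that of Ttr were all low. Likeness was the root mean square difference between log2(CPM + 1) profiles over the 5 libraries, each centred on its own mean, among 8809 named features with a mean of at least 1 CPM. The nearest to Ttr was C4a (1.25), followed by Ripor3 (1.44), Tcea3, Nek1, Cyth3, Ccdc30, Mapk10, Nid1, Gm8319 and Frmd5 (1.56). C4a held 0 and 45 counts in KI replicates 1 and 3, against 0, 1 and 5 counts in WT replicates 1, 2 and 3. The others held 34 to 76 counts in KI replicate 3, and that over Nek1 rests on 1 exon base. The widest excess of KI replicate 3 over the next library among these 10 was 7.28-fold, for C4a, against 33.8-fold for Ttr. Some of them, such as C4a and Ripor3, reached a mean of 1 CPM only through KI replicate 3. All were picked for likeness to Ttr, so their excess in that library restates the choice.

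Prlr had closer neighbours. The nearest was Arid3c (0.29), a gene of a DNA-binding protein family, with 35 and 96 counts in KI replicates 1 and 3, against 10, 3 and 2 counts in WT replicates 1, 2 and 3. Zup1 (0.35), Ankrd55 (0.40), Stard3nl (0.43) and N4bp2 (0.44) came next. All 5 shared with Prlr that WT replicate 1 was the highest WT library. Since they were picked for a profile like that of Prlr, this largely restates the choice. Ankrd55 differed from Prlr in that KI replicate 1, with 52 counts, was above KI replicate 3, with 47 counts. Prlr was not among the 10 features nearest to Ttr, nor Ttr among the 5 nearest to Prlr.

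The other genes of the prolactin pathway were read from a list of 15. Of these 12 were tested, 7 with a positive and 5 with a negative log2 fold change and a median of 0.07, and 0 passed the edgeR quasi-likelihood test (1 at an unadjusted p under 0.05, and 0 by DESeq2 or limma voom). With 0.102% of all features passing and 6.39% at an unadjusted p under 0.05, these counts are near the background. No feature covered Prl, the ligand. Jak2, the receptor's kinase, stood at 64.4 and 73.2 CPM in the KI libraries, against 78.8, 60.4 and 92.3 CPM in the WT libraries. Stat5b stood at 71.2 and 60.6 CPM in the KI libraries, against 56.3, 75.4 and 54.9 CPM in the WT libraries. The smallest p values belonged to Shc1, an adaptor, at -0.77 (SE 0.34, edgeR adjusted p = 0.762) and Stat3 at 0.41 (SE 0.23, edgeR adjusted p = 0.861).

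The list of genes that transport or read thyroid hormone or retinoids holds 23 besides Ttr. Of these 11 were tested, 4 with a positive and 7 with a negative log2 fold change and a median of -0.07, and 0 passed (0 at an unadjusted p under 0.05, and 0 by DESeq2 or limma voom). Thra, a thyroid hormone receptor gene, stood at 142.6 and 129.6 CPM in the KI libraries, against 174.9, 148.6 and 173.7 CPM in the WT libraries (edgeR adjusted p = 0.777). Rxrb, a retinoid receptor partner on a feature it shares with Slc39a7, stood at 282.2 and 288.9 CPM in the KI libraries, against 336.8, 323.6 and 322.0 CPM in the WT libraries (edgeR adjusted p = 0.863).

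Of the markers of cells that adjoin the choroid plexus, none of the 3 summed levels was highest in KI replicate 3. Summed over the 7 ependymal genes with features of their own, the level was 67.7 and 46.5 CPM in KI replicates 1 and 3, against 86.3, 51.4 and 45.9 CPM in WT replicates 1, 2 and 3. Over 7 genes of meningeal and vascular fibroblasts it was 168.0 and 134.6 CPM in the KI libraries, against 146.2, 151.4 and 154.8 CPM in the WT libraries. Over 6 endothelial genes it was 136.3 and 140.7 CPM in the KI libraries, against 144.9, 113.8 and 129.4 CPM in the WT libraries. By comparison the 20 choroid plexus genes, without Ttr and Prlr, summed to 791.8 and 1116 CPM in the KI libraries, against 809.6, 752.6 and 765.6 CPM in the WT libraries. Enpp2 (515.8 CPM in KI replicate 3) and Vat1l (313.1 CPM) made up most of that sum and most of its excess in KI replicate 3. The higher sum is thus not an excess shared by the other genes. Enpp2 is also found in oligodendrocytes, and Vat1l was raised in both KI libraries.

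No member of the ependymal, fibroblast or endothelial lists passed the edgeR quasi-likelihood test, among 13, 9 and 6 tested (0, 1 and 0 at an unadjusted p under 0.05, where 6.39% of all features were, and 0 by DESeq2 or limma voom). Hydin, of the motile cilium, stood at 0.68 and 0.49 CPM in the KI libraries, against 3.01, 2.67 and 2.29 CPM in the WT libraries (edgeR adjusted p = 0.810). Dnah11, an axonemal dynein gene that shares its feature with Cdca7l, had a log2 fold change of -1.02 (SE 0.72). Col1a1, a collagen gene of fibroblasts whose feature also covers Hils1, stood at 34.0 and 10.4 CPM in the KI libraries, against 38.1, 33.2 and 53.5 CPM in the WT libraries (edgeR adjusted p = 0.705). It was lowest in KI replicate 3, the library with the most Ttr. Pdgfra had a log2 fold change of 0.37 (SE 0.20), Tek, an angiopoietin receptor gene, of -0.70 (SE 0.36) and Slc2a1, the glucose transporter of vessels, of 0.21 (SE 0.16).

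The hypothalamus, which also makes Prlr, was covered poorly by its list. Of 12 genes 4 had a feature, and 3 were tested, none of which passed (0 at an unadjusted p under 0.05, and 0 by DESeq2 or limma voom). Agrp, a feeding peptide gene, stood at 12.6 and 9.13 CPM in KI replicates 1 and 3, against 5.50, 6.26 and 10.2 CPM in WT replicates 1, 2 and 3, with overlapping groups. Pomc shares its feature with Dnmt3a and Efr3b (log2 fold change -0.14, SE 0.10). Cga held 0 counts in every library.

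Spiny projection neuron genes mark the striatum itself, and the 7 tested were present in all 5 libraries. Of the 16 on the list 8 had a feature, and Drd1 and Drd2 had none. Meis2, not tested, held 1 count in WT replicate 1 and 0 in each other library. Penk, the enkephalin gene, stood at 5278 and 5883 CPM in KI replicates 1 and 3, against 6699, 8248 and 7330 CPM in WT replicates 1, 2 and 3. Of the 7 list members tested, 5 had a negative log2 fold change and 0 passed the edgeR quasi-likelihood test (4 at an unadjusted p under 0.05, and 3 each by DESeq2 and limma voom). Over all features 6.39% were at an unadjusted p under 0.05, DESeq2 called 1.74% and limma voom 0.373%. The smallest p values belonged to Rgs9 at -1.03 (SE 0.19, edgeR adjusted p = 0.0636) and to the feature shared by Ppp1r1b, Stard3 and Erbb2 at -0.57 (SE 0.10, edgeR adjusted p = 0.0636). Penk and Rgs9 were lowest in KI replicate 1. The part of choroid plexus tissue in the Ttr level of KI replicate 3 was not tested.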

How the data were processed

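Read pairs were counted per feature by the authors with featureCounts 2.0.1, and the deposited numbers are raw counts. Per the file headers, the features are those of Ensembl 103 (GRCm39), a pair counted for every feature it touched, no option for counting multi-mapped reads was set, and strand was ignored, although the library kit keeps it per the labels' protocols. Which aligner and alignment build were used is not given in the sources used here. Of 53700 features 33953 have no GRCm38 exon at their positions, and the Ttr reads lie at GRCm38 positions, so genes were named by laying features over GENCODE M21 exons with bedtools 2.31.1, with no coordinate converted. After filterByExpr and TMM scaling, features were tested by quasi-likelihood in edgeR 4.0.16 under R 4.3.3 (Benjamini-Hochberg over all features, threshold 0.05). DESeq2 1.42.0 and limma voom (limma 3.58.1) were alternatives. At 0 counts the upper limit (3 counts) lies between 0.370 and 0.458 CPM, by library. Exact binomial intervals and this limit cover counting error only.

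The members, the 8 gene lists and the named genes were chosen with earlier results of these data known. The rule names up to 25 choroid plexus genes of at least 1 CPM by level, from each other list up to 4 called members (failing that, the 2 of smallest p), and the nearest profiles to Ttr (10) and Prlr (5). A gene that this rule names is not reported here, though list counts and sums include it. Replicate numbers were not treated as pairs, and KI replicate 2 is not analysed here. Jak2, Stat5b, Penk, Cga, Kl, Slc4a5, Folr1, Abca4, Slc13a4, Krt8, Ttc21a, Lbp, Kcne2, Igf2 and Meis2 were named after their values were seen.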

Additional observations from a re-analysis of the deposited data

How the results depend on the processing

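The Ttr log2 fold change lay between -0.92 and 5.30 when 1 library was left out, with the negative value without KI replicate 3. It was 2.29 with limma voom and 2.54 with the replicate block. For Prlr it lay between 1.57 and 2.73 when 1 library was left out, and the block gave 1.82. Relative to 14 changed features, no filter gave 183, the replicate block 153, DESeq2 121 and limma voom 51, and leaving out 1 library 2 to 162. Total-count scaling, no filter, the DESeq2 Wald test, limma voom and the replicate block each called 1 choroid plexus gene (Vat1l), and leaving out 1 library 0 to 1. The choroid plexus median log2 fold change was 0.25 over features of 1 gene and -0.0778 to 0.19 with 1 library left out. Without a filter 1 fibroblast gene (Col1a1) was called, and 0 to 1 with 1 library left out. The fibroblast median was 0.013 without a filter, 0.0100 with DESeq2, 0.0405 with limma voom and 0.0861 with the block. Calls of spiny projection neuron genes were 4 without a filter, 3 with the DESeq2 Wald test, limma voom or the block, and 0 to 4 with 1 library left out. The endothelial median was 0.0481 with the block, and the thyroid hormone and retinol median -0.0225 with total-count scaling. Medians with 1 library left out ran from -0.55 to 0.0861 (ependymal), -0.10 to -0.013 (fibroblast), -0.13 to 0.0762 (endothelial), -0.12 to 0.65 (hypothalamic) and -0.0382 to 0.0656 (prolactin). Against 5 choroid plexus genes that stood out in KI replicate 3 at 2-fold, 2 did at 3-fold, both with 10 counts in that library alone. Among members with 10 counts in another library there were 3 at 2-fold and 0 at 3-fold, limits added after seeing the data. The cause of these shifts was not tested. With 1 KI library left, its spread is assumed to be that of the WT libraries.

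The labels do not say that a replicate number marks shared animals or days. With 2 shared numbers, same-numbered libraries had deviations that correlated at 0.135 and 0.087 across features. KI replicate 3 and WT replicate 2, of unlike number, correlated at 0.0653. With 2 KI libraries the deviations mirror each other, so each WT library has equal values of opposite sign with them. These values therefore cannot decide on pairing, and the replicate block is given only here. Ttr has no value under the files' own labels, because the feature labelled Ttr holds 0 counts.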
